A study of Mus musculus with 20 samples.

Results

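The 9 genes described here are 7 adipokines (Adipoq, Lep, Retn, Cfd, Rbp4, Rarres2 and Metrnl) and the 2 adiponectin receptors (Adipor1 and Adipor2). They were chosen by name among the 55471 gene IDs of the count tables, and all 9 were among the 15233 genes with enough reads to be tested. The tissue was mouse brown adipose tissue (BAT), the fat that burns fuel to make heat, with 5 mRNA-seq libraries in each of 4 groups. KO_cold was BAT of mice with an adipose-specific knockout of CEBPB after 4 h of cold stress, KO_RT the same genotype at room temperature, WT_cold CEBPB wild-type BAT after 4 h of cold stress, and WT_RT wild-type BAT at room temperature. The labels used here give no Cre driver, age or sex, and do not say that the 5 libraries of a group came from separate mice, so the p-values measure the spread between libraries. An adipose-specific deletion leaves Cebpb intact in the other cells of the tissue.

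Adipokines are proteins that fat cells release to act on other tissues or on neighbouring cells. Adiponectin, made from Adipoq, is bound by the membrane receptors AdipoR1 and AdipoR2, which act through AMP-activated kinase and PPAR alpha. Leptin, made from Lep, reports the size of the fat stores to the brain. C/EBP beta, the product of Cebpb, is a transcription factor that drives early fat cell differentiation and responds to cyclic AMP, the second messenger by which noradrenaline released in the cold activates brown fat.

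The libraries held 27.07 M to 55.18 M reads on the reverse strand of genes, and values below are CPM, the read count of a gene relative to the library total after TMM scaling. Cebpb averaged 1.92 ± 0.277 CPM in KO_cold and 143 ± 22.4 CPM in WT_cold, and 0.564 ± 0.253 CPM in KO_RT against 105 ± 19.9 CPM in WT_RT (SD, n = 5 each). No KO library exceeded 2.27 CPM and no WT library was under 75.5 CPM. The brown fat marker Ucp1, the uncoupling protein of thermogenesis, averaged 12979 CPM in KO_cold, 5967 in KO_RT, 11990 in WT_cold and 6372 in WT_RT. Of 6 white fat markers, Tcf21, Hoxc9, Hoxc10 and Wfdc21 averaged under 1 CPM in every group, Hoxc8 averaged 3.33 to 6.08 CPM and Nnat 2.13 to 7.05 CPM, with 18.4 CPM in 1 WT_RT library. Skeletal muscle marker RNA, summed over 12 genes, ranged from 0.823 to 1.25 CPM in KO_cold, from 28.9 to 577 CPM in KO_RT, from 0.857 to 33.1 CPM in WT_cold and from 1.81 to 1338 CPM in WT_RT. On the first principal component of all genes, which separated cold from room temperature libraries and held 53.9% of the variance, the scores closest to 0 within their groups were those of WT_RT replicate 4 (-23.4) and WT_cold replicate 5 (26.6), so results that change without them are given in both forms. Because these are bulk samples, fewer cells of a type and less RNA per cell cannot be told apart.

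The DNA before the start sites of Rbp4, Cfd and Lep is shown because Rbp4 and Cfd are the members that differed with the genotype and the Lep window held a C/EBP motif. The sequences are from RefSeq on GRCm38.p6, 5′ to 3′ on the strand of the gene, up to 250 bases before the start and without annotated UTR bases. Capitals mark a match to the C/EBP motif TTGCNNAA on either strand. Rbp4 has 2 annotated starts, and the downstream one lies within the gene as GENCODE annotates it.

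Rbp4 upstream start, chr19:38125322-38125571, minus strand: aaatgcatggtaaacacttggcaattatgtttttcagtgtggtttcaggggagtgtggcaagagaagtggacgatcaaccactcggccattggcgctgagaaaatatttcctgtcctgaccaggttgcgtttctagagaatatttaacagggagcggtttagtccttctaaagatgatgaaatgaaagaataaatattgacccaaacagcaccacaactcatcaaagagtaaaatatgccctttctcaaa

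Rbp4 downstream start, chr19:38124829-38125061, minus strand: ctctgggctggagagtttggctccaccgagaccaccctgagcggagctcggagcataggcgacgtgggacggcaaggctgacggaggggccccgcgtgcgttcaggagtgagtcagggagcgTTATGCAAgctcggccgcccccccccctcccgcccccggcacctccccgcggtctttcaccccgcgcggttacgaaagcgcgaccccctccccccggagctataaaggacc

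Cfd, chr10:79890603-79890852, plus strand: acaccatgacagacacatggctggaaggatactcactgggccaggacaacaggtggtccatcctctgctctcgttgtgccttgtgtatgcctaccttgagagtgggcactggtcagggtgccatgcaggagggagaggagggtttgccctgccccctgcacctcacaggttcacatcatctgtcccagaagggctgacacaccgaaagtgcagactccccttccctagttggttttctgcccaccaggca

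Lep, chr6:29059971-29060219, plus strand: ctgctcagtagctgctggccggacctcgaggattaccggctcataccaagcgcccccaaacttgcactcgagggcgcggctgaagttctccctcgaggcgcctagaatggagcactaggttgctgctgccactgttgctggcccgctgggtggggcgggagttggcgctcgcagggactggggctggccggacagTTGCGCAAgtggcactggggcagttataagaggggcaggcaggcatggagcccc

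The Rbp4 match lay 128 bases before the downstream start and the Lep match, which reads the same on both strands, 55 bases before its start. These were the only 2 of the 10 windows of the 8 members in the table that held the C/EBP motif, which was found in 9.56% of all 32851 windows of 250 bases. No member's window held the cyclic AMP response element TGACGTCA (1.55% of all windows) or the NR4A motif AAAGGTCA (1.34%). A match is a description of the letters and not a binding site.

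Levels of the 9 genes spanned a wide range in this tissue. Per kilobase of annotated exon, the mean level over the 20 libraries was 770 CPM per kb for Cfd, 601 for Adipoq, 135 for Adipor2, 76.5 for Rbp4, 32.5 for Adipor1, 15.9 for Retn, 15 for Rarres2, 3.59 for Metrnl and 0.785 for Lep. Cfd lay above 99.7% of the tested genes and Lep above 30.6%. Single libraries of Cfd (434 to 1307 CPM per kb) and Adipoq (446 to 727) overlapped, as did those of Adipor2 and Rbp4, of Rbp4 and Adipor1, of Retn and Rarres2, and of Metrnl and Lep. Adipoq and Adipor2, Adipor1 and Retn, and Rarres2 and Metrnl did not overlap in any library. Adipoq and Cfd together made up 84.8% ± 1.96 of the summed adipokine CPM in KO_cold, 87.5% ± 1.65 in KO_RT, 91.4% ± 0.595 in WT_cold and 94% ± 0.999 in WT_RT (SD, n = 5 each).

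**Figure D1:**
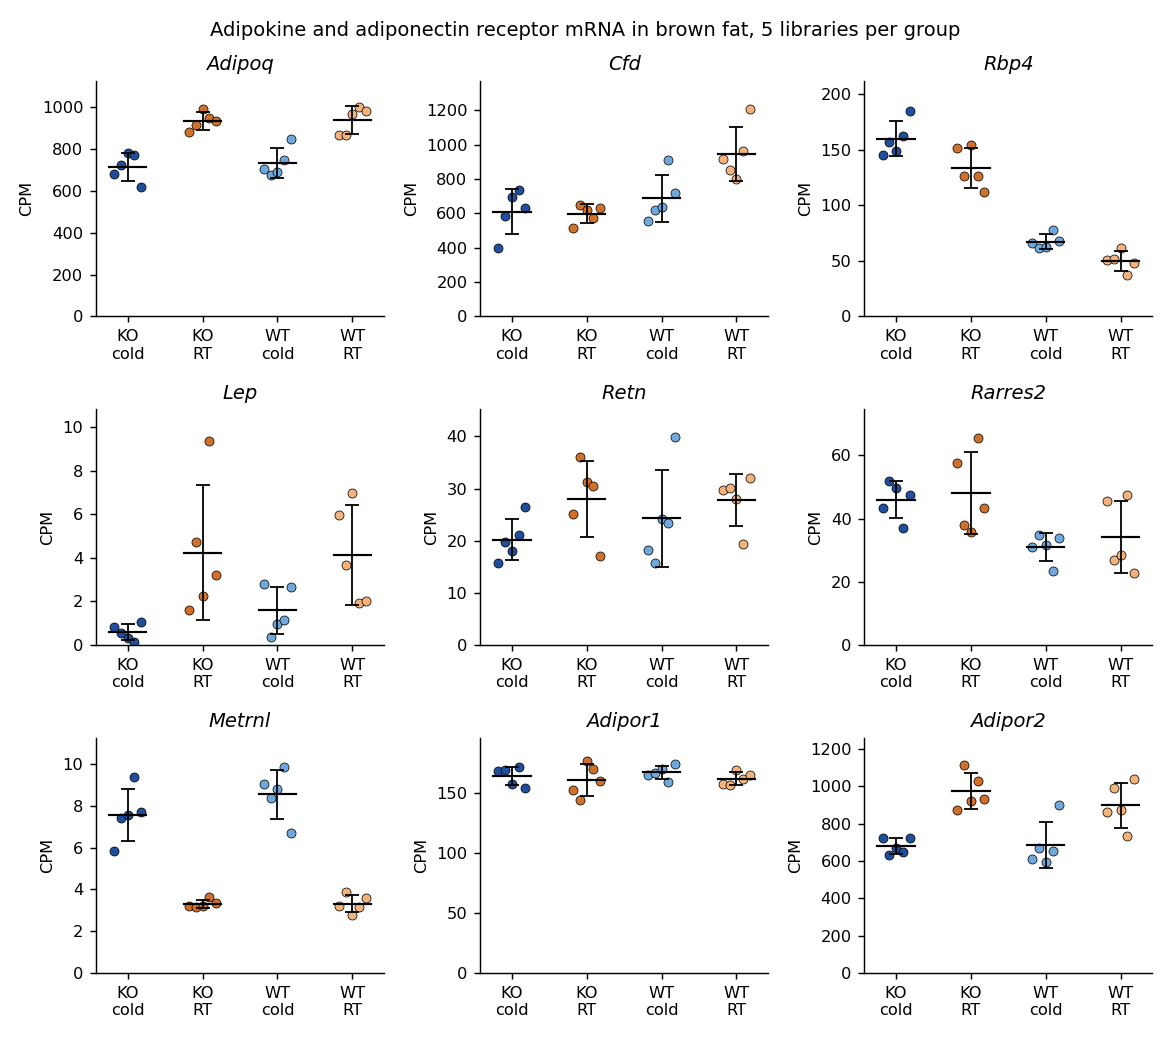
CPM of each gene (y axis, from 0) in every library of the 4 groups (x axis); points are libraries, wide lines are means and whiskers are SD. The 10 KO libraries of Rbp4 lie above all 10 WT libraries, Metrnl separates cold from room temperature, and Adipor1 stays between 144 and 176 CPM in all 20 libraries.

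The comparison of KO with WT asks how loss of CEBPB in fat bears on these genes at each temperature. At room temperature Rbp4 rose 2.68-fold and Cfd fell to 0.632 of the WT_RT level, and in the cold Rbp4 rose 2.38-fold. These 2 of 9 members at room temperature stand against 2.7% of all 15233 tested genes called there, of which 1.38% rose and 1.32% fell. The 1 of 9 in the cold stands against 7.7% of the genes, of which 3.51% rose. Groups without overlap were found in 4.98% of all tested genes at room temperature and 7% in the cold. Adipoq, Lep, Retn, Rarres2, Metrnl and both receptors were not called with the genotype at either temperature by edgeR's quasi-likelihood test at a Benjamini-Hochberg adjusted p of 0.05, adjusted over all tested genes.

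Rbp4 (chr19:38116629-38125281, minus strand) encodes the plasma carrier of retinol, which is made mainly in the liver and also in fat. Rbp4 measured 151, 126, 154, 126 and 112 CPM in the KO_RT libraries, against 51.1, 51.7, 61.7, 37.6 and 47.7 CPM in the WT_RT libraries. In the cold it measured 145, 157, 149, 162 and 185 CPM in KO_cold and 66, 61.9, 62.1, 77.9 and 68.2 CPM in WT_cold. Every KO library was above every WT library at both temperatures. The log2 fold change was 1.42 (SE 0.111, 95% interval 1.19 to 1.65, adjusted p = 7e-08) at room temperature and 1.25 (SE 0.11, 95% interval 1.02 to 1.48, adjusted p = 2.56e-07) in the cold. Ranked by p among the 15233 tested genes, Rbp4 was number 5 at room temperature and number 13 in the cold.

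Rbp4 also rose with cold. In WT its log2 fold change with cold was 0.43 (SE 0.109, adjusted p = 0.00219), with every WT_cold library above every WT_RT library. In KO it was 0.26 (SE 0.108, adjusted p = 0.0476), with KO_cold and KO_RT libraries overlapping; this call was kept in 12 of 19 alternative settings and lost in others, for example at an adjusted p of 0.0659 with the replicate block and of 0.0867 without KO_cold replicate 5. The difference between the responses in KO and WT was -0.17 (95% interval -0.49 to 0.15, adjusted p = 0.783).

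Fibroblast and progenitor markers were also higher in KO when summed. Their summed level over 7 genes was 819 to 913 CPM in KO_cold against 640 to 758 CPM in WT_cold, and 684 to 932 CPM in KO_RT against 574 to 742 CPM in WT_RT. Of the 7, 3 rose in KO in the cold (Pdgfra, Dcn and Lum) and 2 at room temperature (Pdgfra and Dcn), against 3.51% and 1.38% of all tested genes. Pdgfrb, Col1a1, Col3a1 and Pi16 were not called at either temperature, and Pdgfrb had a log2 fold change of -0.07 at room temperature (adjusted p = 0.793). The mean of the 7 markers as a term in the fit was an alternative added after the data were seen. With it, the log2 fold change of Rbp4 was 1.34 at room temperature (adjusted p = 3.65e-05) and 1.13 in the cold (adjusted p = 0.00194). The marker mean (log2 CPM) was 6.06 to 6.17 in KO_cold against 5.76 to 5.88 in WT_cold, without overlap. At room temperature it was 5.87 to 6.22 in KO_RT against 5.65 to 5.99 in WT_RT. A fit with this term therefore cannot fully tell the genotype from the markers, here and below.

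The neighbours of Rbp4 on the chromosome, chosen after their values were seen, were not called with the genotype. Ffar4, a receptor for long-chain fatty acids that lies 2366 bases from Rbp4, averaged 42 CPM in KO_RT and 42.8 CPM in WT_RT (log2 fold change -0.03, adjusted p = 0.984). In the cold Ffar4 averaged 139 CPM in KO_cold and 82.7 CPM in WT_cold, and missed the threshold (0.75, adjusted p = 0.0567). Fra10ac1, on the other side, had log2 fold changes of -0.06 at room temperature (adjusted p = 0.822) and 0.00 in the cold (adjusted p = 0.99).

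Among 8917 genes with a mean of at least 5 CPM, the profiles most like that of Rbp4 over the 20 libraries were those of Dlgap1, a scaffold protein of synapses, Kng2, a kininogen, and Kcna2, a voltage-gated potassium channel. Likeness was the root mean square difference of centred log2 CPM, which was 0.317, 0.379 and 0.433 for the 3 genes. Kng2 averaged 264 ± 35.9 CPM in KO_cold and 100 ± 24.9 CPM in WT_cold, and 246 ± 35.1 CPM in KO_RT and 84.8 ± 20.5 CPM in WT_RT (SD, n = 5 each). Its log2 fold change with the genotype was 1.40 in the cold and 1.54 at room temperature. Dlgap1 averaged 8.06 ± 1.15 CPM in KO_cold and 4.02 ± 0.463 CPM in WT_cold, and 7.09 ± 0.692 CPM in KO_RT and 3.63 ± 0.587 CPM in WT_RT (SD, n = 5 each). Neither Dlgap1 nor Kng2 was called with cold in WT (adjusted p = 0.332 and 0.254), where Rbp4 was; the difference between the genes was not tested.

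**Figure D2:**
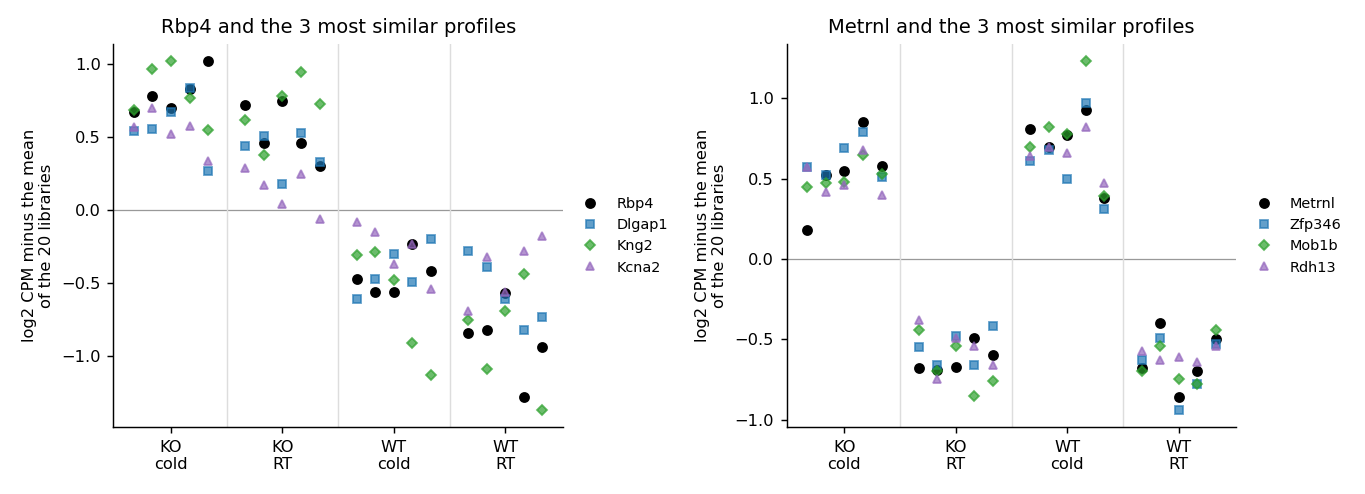
log2 CPM minus each gene's mean over the 20 libraries (y axis), by group and library (x axis), for Rbp4 (left) and Metrnl (right), each with the 3 genes of the most similar profile; each marker is 1 library. Rbp4 and the 3 genes beside it are above 0 in nearly all KO libraries and below 0 in the WT libraries, and Metrnl and the 3 genes beside it are above 0 in the cold libraries and below 0 at room temperature.

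Cfd (chr10:79890853-79892655, plus strand) encodes adipsin, the complement factor D protease that cleaves factor B and so starts the alternative complement pathway. Cfd measured 513, 651, 618, 573 and 634 CPM in KO_RT, against 915, 850, 801, 960 and 1205 CPM in WT_RT. All KO_RT libraries were below all WT_RT libraries, and the log2 fold change was -0.66 (SE 0.151, adjusted p = 0.0195). The call was lost in 6 of 19 alternatives, among them without WT_RT replicate 5, the highest library (-0.56, adjusted p = 0.0668), without WT_RT replicate 4 and WT_cold replicate 5 together (-0.66, adjusted p = 0.0506), and with the fibroblast markers as a term (-0.46, adjusted p = 0.448).

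In the cold the genotypes overlapped. Cfd measured 400, 583, 695, 738 and 629 CPM in KO_cold and 554, 621, 635, 908 and 716 CPM in WT_cold, with a log2 fold change of -0.17 (95% interval -0.49 to 0.14, adjusted p = 0.593). Cold lowered Cfd in WT by a log2 fold change of -0.46 (SE 0.15, adjusted p = 0.0129), a call that was lost without WT_RT replicate 5 (adjusted p = 0.0687) and without WT_cold replicate 1 (adjusted p = 0.0562). In KO the change with cold was 0.03 (95% interval -0.29 to 0.34, adjusted p = 0.894). The difference between these responses, 0.49 (95% interval 0.05 to 0.93), had an unadjusted p of 0.0324 and an adjusted p of 0.431, so it was not called. Across the 9 members no interaction was called by edgeR's quasi-likelihood test or by DESeq2, and Cfd was the 1 member with an unadjusted p under 0.05; 0.742% of all tested genes were called.

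Of the alternative complement pathway genes, 7 of 8 were tested and none was called with the genotype at either temperature. With cold, Cd55, which protects cells from complement, fell in KO (-0.43, adjusted p = 0.00184) and in WT (-0.48, adjusted p = 0.000555), and C5ar1, the C5a receptor of myeloid cells, rose in KO (0.63, adjusted p = 0.0125) and in WT (0.53, adjusted p = 0.0322), calls that were kept in 17 of 19 alternatives in KO (adjusted p up to 0.0639) and 13 of 19 in WT (adjusted p up to 0.153). C3, the central component that the pathway cleaves, averaged 746 CPM in KO_cold, 1106 in KO_RT, 800 in WT_cold and 872 in WT_RT and was not called. Cfb, the substrate of adipsin, averaged under 0.1 CPM in every group and was not tested.

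Rarres2 (chr6:48569696-48572789, minus strand), which encodes the chemoattractant chemerin, was higher in every KO_cold library than in every WT_cold library without passing the test. It measured 43.4, 51.8, 49.8, 37.1 and 47.5 CPM in KO_cold against 31, 34.7, 31.5, 23.5 and 33.9 CPM in WT_cold (log2 fold change 0.57, SE 0.206, adjusted p = 0.114). As above, 7% of all tested genes had groups that did not overlap in that comparison. At room temperature it averaged 48.1 ± 13 CPM in KO_RT and 34.3 ± 11.4 CPM in WT_RT (SD, n = 5 each; 0.49, adjusted p = 0.279). In the cold the value passed the threshold in a fit of only the groups compared (adjusted p = 0.00801) and with DESeq2 (adjusted p = 0.0376), and the log2 fold change was 0.05 with the fibroblast markers as a term. Between 4.083% and 25.88% of the stranded reads on Rarres2 were antisense, and 892 of its exon bases are shared with Lrrc61 on the opposite strand, so its level is less certain than that of the other members. The closest profiles were those of Lgi2, Smoc2 and Ccdc3 (root mean square differences 0.22, 0.246 and 0.247), and of these Smoc2, an extracellular matrix protein, rose in KO at both temperatures (0.33 in the cold, adjusted p = 0.0275; 0.41 at room temperature, adjusted p = 0.014).

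Among the 6 genes of receptors and partners of chemerin, resistin and Metrnl, Cmklr1, the signalling receptor of chemerin, averaged 10.2 CPM in KO_cold and 7.76 CPM in WT_cold and rose in KO in the cold (0.39, adjusted p = 0.0274). The call was kept in 12 of 19 alternatives; the value was 0.17 (adjusted p = 0.793) with the fibroblast markers as a term, and leaving out any 1 of WT_cold replicates 2 and 5 and KO_cold replicates 3 and 5 also lost the call (adjusted p up to 0.0809). Ccrl2, which binds chemerin without signalling, averaged 1.18 CPM in KO_cold and 1.78 CPM in WT_cold and fell (-0.60, adjusted p = 0.0328). The call was kept in 9 of 19 alternatives and in 3 of the 10 that left out 1 library (adjusted p up to 0.0992), and with the fibroblast markers as a term the value was -0.41 (adjusted p = 0.622). None of the 6 was called with the genotype at room temperature. With cold, Cmklr1 rose in KO (0.49, adjusted p = 0.00056) and had a log2 fold change of 0.02 in WT (adjusted p = 0.902), and the test of the difference did not pass (0.47, adjusted p = 0.204).

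The comparison of cold with room temperature asks how these genes respond to acute cold within each genotype. In KO, 5 of 9 members were called, against 59.2% of all tested genes. Metrnl and Rbp4 rose (27.5% of all genes rose), and Adipoq, Adipor2 and Lep fell (31.7% of all genes fell). In WT, 6 of 9 were called, against 56.4% of all genes. Metrnl and Rbp4 rose (26.2% of all genes), and Adipoq, Adipor2, Lep and Cfd fell (30.2% of all genes). Both shares are near those of all genes, so the count itself does not set these genes apart. Without WT_RT replicate 4 and WT_cold replicate 5 the counts were 6 of 9 in KO and 7 of 9 in WT, since Retn was then called too. All 12 skeletal muscle markers fell with cold in both genotypes.

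**Figure D3:**
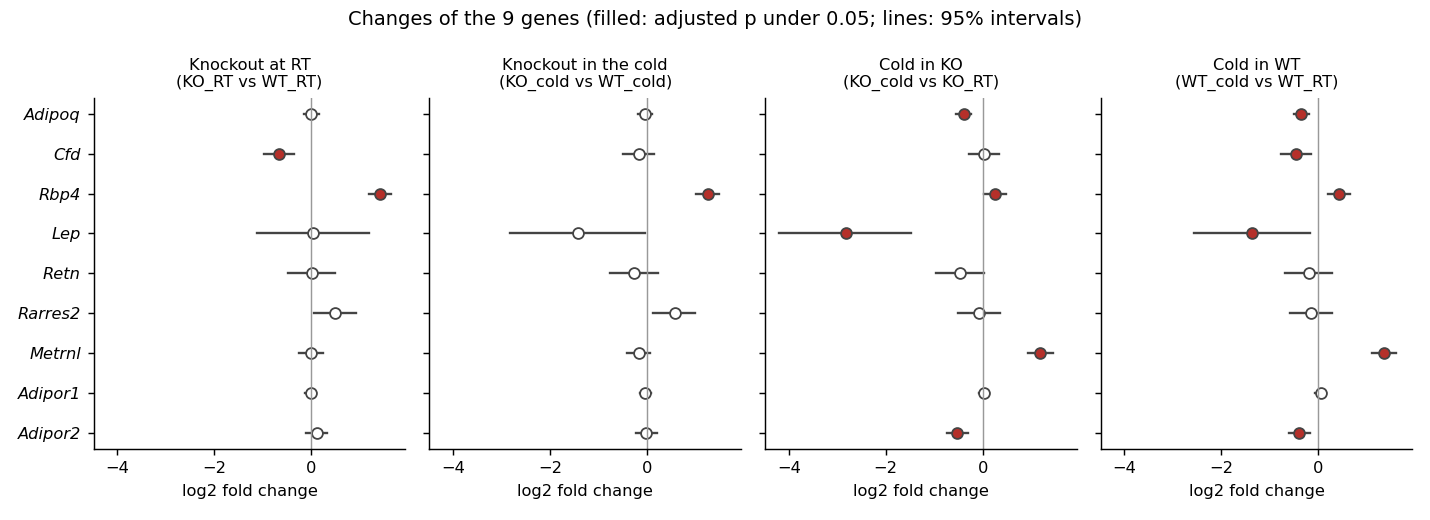
log2 fold changes of the 9 genes (x axis) in KO against WT at room temperature and in the cold, and in cold against room temperature in KO and in WT; lines are 95% intervals from the edgeR fit and filled points have an adjusted p under 0.05. Rbp4 is the 1 gene with a filled point in every panel, and Lep has the widest intervals.

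Metrnl (chr11:121701544-121716306, plus strand) encodes the secreted protein meteorin-like, which in mice is released from muscle after exercise and from fat in the cold. Metrnl measured 5.85, 7.41, 7.55, 9.34 and 7.71 CPM in KO_cold, against 3.2, 3.16, 3.21, 3.64 and 3.38 CPM in KO_RT. In WT it measured 9.04, 8.36, 8.79, 9.85 and 6.7 CPM in WT_cold, against 3.2, 3.88, 2.8, 3.15 and 3.61 CPM in WT_RT. All cold libraries were above all room temperature libraries. It rose 2.28-fold in KO (log2 fold change 1.19, SE 0.123, adjusted p = 4.28e-08) and 2.56-fold in WT (1.36, SE 0.121, adjusted p = 6.83e-09), and both calls were kept in all 19 alternatives. The difference between the responses was -0.17 (95% interval -0.52 to 0.19, adjusted p = 0.823).

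Zfp346, a zinc finger protein that binds double-stranded RNA, Mob1b, an activator of kinases of the Hippo pathway, and Rdh13, a retinol dehydrogenase, had the profiles most like that of Metrnl, with root mean square differences of 0.146, 0.161 and 0.167. Mob1b averaged 232 ± 13.2 CPM in KO_cold and 103 ± 12.2 CPM in KO_RT, and 284 ± 61.1 CPM in WT_cold and 104 ± 10.8 CPM in WT_RT (SD, n = 5 each). The nearest tested gene on the chromosome, B3gntl1, named after its values were seen, fell with cold (-1.63 in KO, adjusted p = 1.18e-07; -1.65 in WT, adjusted p = 8.93e-08). Kit, reported as a receptor of Metrnl in mouse, averaged 3.95 CPM in KO_cold and 8.22 CPM in KO_RT, and 3.79 CPM in WT_cold and 7.37 CPM in WT_RT. It fell in KO (-1.06, adjusted p = 0.00308) and in WT (-0.96, adjusted p = 0.00618), and the call in KO was lost with the skeletal muscle markers as a term (adjusted p = 0.0736). In KO that term did not overlap between cold and room temperature, so the fit cannot fully tell it from cold. Metrn, the paralog of Metrnl, averaged under 1 CPM in every group and was not called.

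Adipoq (chr16:23146536-23158028, plus strand) fell with cold in both genotypes. Adipoq measured 680, 725, 782, 771 and 617 CPM in KO_cold, against 882, 914, 993, 949 and 935 CPM in KO_RT. In WT it measured 705, 678, 690, 747 and 850 CPM in WT_cold, against 869, 866, 969, 1004 and 984 CPM in WT_RT. Cold and room temperature libraries did not overlap in either genotype, as in 44.9% of all tested genes in KO and 38.2% in WT. The log2 fold change was -0.39 in KO (SE 0.0734, adjusted p = 0.000108) and -0.35 in WT (SE 0.0734, adjusted p = 0.000297), and the difference between the responses was -0.03 (95% interval -0.25 to 0.18). With the genotype it was -0.01 at room temperature (95% interval -0.16 to 0.15) and -0.04 in the cold (95% interval -0.19 to 0.11). Of 9 mature adipocyte markers, 8 also fell with cold in KO and 8 in WT, where 31.7% and 30.2% of all tested genes fell. The exception was Fabp4 (-0.09 in KO, adjusted p = 0.366, and 0.06 in WT, adjusted p = 0.592). The summed level of the 9 markers was 16191 to 18493 CPM in KO_cold against 22933 to 25155 CPM in KO_RT. In WT it was 17682 to 21903 CPM in WT_cold against 22604 to 24566 CPM in WT_RT. The part of these markers in the fall of Adipoq was not tested.

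Of the adiponectin receptors, Adipor2 fell with cold in both genotypes and Adipor1 was not called in any comparison. Adipor2 (chr6:119353150-119417704, minus strand) measured 722, 631, 671, 646 and 725 CPM in KO_cold, against 873, 1115, 922, 1029 and 929 CPM in KO_RT. In WT it measured 609, 672, 593, 653 and 899 CPM in WT_cold, against 860, 989, 874, 732 and 1036 CPM in WT_RT. The KO groups did not overlap, and in WT 1 cold library, replicate 5, lay within the room temperature range. The gene fell in KO (-0.52, SE 0.105, adjusted p = 0.000208) and in WT (-0.39, SE 0.105, adjusted p = 0.00307; -0.55 without WT_RT replicate 4 and WT_cold replicate 5). Adipor1 (chr1:134415378-134433351, plus strand) averaged 164 ± 7.82 CPM in KO_cold and 160 ± 13.2 CPM in KO_RT, and 167 ± 5.62 CPM in WT_cold and 162 ± 5.4 CPM in WT_RT (SD, n = 5 each). Its log2 fold change with cold was 0.03 in KO (95% interval -0.08 to 0.14) and 0.05 in WT (95% interval -0.07 to 0.16). Per kilobase of exon, the ratio of Adipor2 to Adipor1 was 3.5 ± 0.344 in KO_cold and 5.15 ± 0.811 in KO_RT, and 3.45 ± 0.549 in WT_cold and 4.68 ± 0.639 in WT_RT (SD, n = 5 each). The ratio ranged from 3.14 to 3.96 in KO_cold against 4.4 to 6.52 in KO_RT, without overlap, and from 2.93 to 4.35 in WT_cold against 3.82 to 5.31 in WT_RT, with overlap.

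Genes of adiponectin assembly and signalling moved both ways. In KO, 3 of 15 rose and 7 fell with cold, and in WT 4 rose and 7 fell. The 10 called in KO and 11 in WT stand against 59.2% and 56.4% of all tested genes. Median log2 fold changes were -0.20 in KO and -0.17 in WT, beside -0.05 for all tested genes in each genotype. Ero1l, the oxidase that helps adiponectin fold and leave the endoplasmic reticulum, rose in KO (0.28, adjusted p = 0.000331) and in WT (0.33, adjusted p = 6.64e-05). Appl2, an adaptor that opposes APPL1 at the receptors, fell in KO (-0.55, adjusted p = 2.7e-06) and in WT (-0.59, adjusted p = 1.01e-06). Of the regulatory subunits of AMP-activated kinase, Prkag1 fell in KO (-0.45, adjusted p = 8.14e-06) and in WT (-0.20, adjusted p = 0.0174), and Prkag2 fell in KO (-0.99, adjusted p = 7.27e-05) and in WT (-0.82, adjusted p = 0.00045). Prkab1, also regulatory, rose in WT (0.32, adjusted p = 0.00606) and was not called in KO (-0.01, adjusted p = 0.954). Prkab2 fell in WT (-0.53, adjusted p = 0.00366) and was not called in KO (-0.31, adjusted p = 0.0753). The catalytic subunit Prkaa2 rose in KO (0.36, adjusted p = 0.00491) and in WT (0.51, adjusted p = 0.000259). The other catalytic subunit, Prkaa1, was not called in KO (0.14, adjusted p = 0.0686) or in WT (0.06, adjusted p = 0.458). Camkk2, a kinase that activates AMP-activated kinase, fell in KO (-0.77, adjusted p = 0.00125) and in WT (-1.17, adjusted p = 1.91e-05). No interaction was called among the 15 genes. With the genotype, none of the 15 was called at room temperature and 1 in the cold: Prkag2 averaged 38.5 CPM in KO_cold and 62.8 CPM in WT_cold and fell (-0.70, adjusted p = 0.0145), a call lost without WT_RT replicate 4 and WT_cold replicate 5 together (adjusted p = 0.0552).

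**Figure D4:**
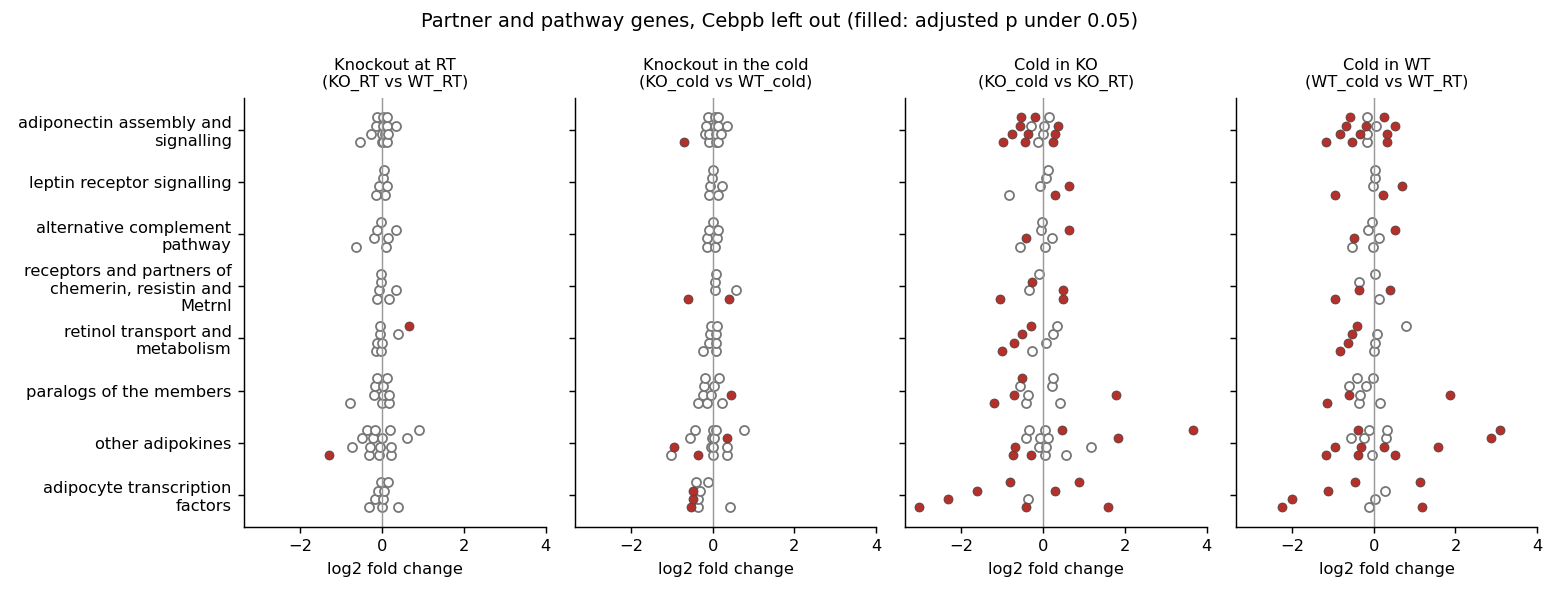
log2 fold changes (x axis) of the tested genes of 8 lists of partners, pathways and relatives of the 9 genes (y axis) in the 4 comparisons; each point is a gene, filled where its adjusted p is under 0.05, and Cebpb, the knocked-out gene, is left out. With cold, filled points lie on both sides of 0 in most lists, and with the genotype at room temperature few points are filled.

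Lep (chr6:29060220-29073877, plus strand) was the lowest and most variable member, with 5 to 309 reads per library. It measured 0.836, 0.549, 0.335, 0.155 and 1.04 CPM in KO_cold, against 1.61, 4.73, 2.25, 9.38 and 3.21 CPM in KO_RT. In WT it measured 2.78, 0.379, 0.97, 1.16 and 2.65 CPM in WT_cold, against 5.98, 3.69, 7, 1.93 and 2.02 CPM in WT_RT. The KO groups did not overlap and the WT groups did. Lep fell to 0.14 of the KO_RT level in KO_cold (log2 fold change -2.83, SE 0.649, 95% interval -4.20 to -1.47, adjusted p = 0.00111). In WT the log2 fold change was -1.37 (SE 0.57, 95% interval -2.57 to -0.17, adjusted p = 0.0496), a call kept in 7 of 19 alternatives. With the skeletal muscle markers as a term, the KO value was -2.01 (adjusted p = 0.0729) and the WT value -0.85 (adjusted p = 0.306). The mean log2 CPM of these markers was -3.39 to -3.13 in KO_cold and 0.352 to 4.95 in KO_RT, without overlap. In KO the fit with this term therefore cannot fully tell the markers from cold. White adipocyte markers, summed over 6 genes, lay from 4.51 to 6.49 CPM in KO_cold against 7.62 to 9.79 CPM in KO_RT, and from 5.48 to 8.08 CPM in WT_cold against 8.11 to 26 CPM in WT_RT. Only Hoxc8 and Nnat of these had enough reads to be tested. Hoxc8 fell with cold in KO (-0.79, adjusted p = 0.00188) and in WT (-0.83, adjusted p = 0.00109). Nnat, which reached 18.4 CPM in WT_RT, was not called (adjusted p = 0.447 in KO and 0.0573 in WT). The part of these markers in the fall of Lep was not tested. The difference between the responses of Lep was -1.46 (95% interval -3.27 to 0.35, adjusted p = 0.608). With the genotype, Lep had a log2 fold change of -1.42 in the cold (95% interval -2.82 to -0.03, adjusted p = 0.239) and 0.04 at room temperature (95% interval -1.11 to 1.19, adjusted p = 0.989).

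The genes most like Lep were Parp16, an ADP-ribosyltransferase of the endoplasmic reticulum, Slc1a5, a neutral amino acid transporter, and Nat8l, which makes N-acetylaspartate in brown fat. Their root mean square differences from Lep, 0.804, 0.808 and 0.828, were larger than those of the genes closest to the other members above. The measure was not scaled to the spread of a gene, and Lep varied most. The SD of log2 CPM over the 20 libraries was 1.47 for Lep, 0.732 for Rbp4, 0.669 for Metrnl and 0.418 for Rarres2. Nat8l averaged 50.1 ± 9.13 CPM in KO_cold and 206 ± 31.8 CPM in KO_RT, and 86.7 ± 40.5 CPM in WT_cold and 214 ± 31.6 CPM in WT_RT (SD, n = 5 each). Of 6 genes of leptin receptor signalling, 2 rose with cold in KO, and in WT 2 rose and 1 fell. Over all tested genes, 59.2% were called with cold in KO and 56.4% in WT. Sh2b1, an adaptor that enhances leptin signalling through JAK2, rose in KO (0.63, adjusted p = 9.06e-09) and in WT (0.69, adjusted p = 3.2e-09), and Ptpn1, a phosphatase that limits it, rose in KO (0.28, adjusted p = 0.00597) and in WT (0.23, adjusted p = 0.0244), the call in WT being kept in 16 of 19 alternatives (adjusted p up to 0.0846). None of the 6 was called with the genotype. The receptor gene Lepr averaged under 1 CPM in every group.

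Retn (chr8:3655770-3660110, plus strand), which encodes resistin, a hormone that opposes insulin action in mice, was not called in any comparison. It averaged 20.2 ± 4.01 CPM in KO_cold, 28 ± 7.24 CPM in KO_RT, 24.3 ± 9.35 CPM in WT_cold and 27.8 ± 4.93 CPM in WT_RT (SD, n = 5 each). The log2 fold change with cold was -0.47 in KO (95% interval -0.97 to 0.03, adjusted p = 0.0961) and -0.20 in WT (95% interval -0.69 to 0.29, adjusted p = 0.491). WT_cold replicate 5 was the highest of all libraries, at 39.8 CPM. Without it and WT_RT replicate 4 the value was -0.44 in KO (adjusted p = 0.0428) and -0.53 in WT (adjusted p = 0.0306), and both were then past the threshold. The KO libraries were the same in that fit, which all groups share. Retn in KO also passed in 1 of the 10 fits that left out 1 library, the one without KO_RT replicate 5 (adjusted p = 0.0382). With the skeletal muscle markers as a term the value was -0.18 in KO (adjusted p = 0.714) and -0.00 in WT (adjusted p = 0.996). As for Lep, the fit with this term cannot fully tell the markers from cold in KO. Cap1, reported as a receptor of human resistin, rose in KO (0.48, adjusted p = 1.04e-08) and in WT (0.39, adjusted p = 1.85e-07), and Tlr4, another reported receptor, fell in KO (-0.27, adjusted p = 0.0245) and in WT (-0.37, adjusted p = 0.00245). The call of Tlr4 in KO was kept in 12 of 19 alternatives and in 4 of the 10 that left out 1 library (-0.18 and adjusted p = 0.127 without KO_RT replicate 4).

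Among genes of retinol transport and metabolism, Dhrs3, which reduces retinaldehyde to retinol, averaged 46.1 CPM in KO_cold and 55.5 CPM in KO_RT, and 43.5 CPM in WT_cold and 57.6 CPM in WT_RT; its fall with cold in WT (-0.41, adjusted p = 0.0303) was kept in 10 of 19 alternatives (adjusted p up to 0.151). Ttr, the transthyretin that binds RBP4 in plasma, and Stra6 and Stra6l, membrane receptors of RBP4, averaged under 0.1 CPM in every group, and 8 of the 14 genes were tested. With cold, 4 of 8 fell in KO and 4 in WT and none rose, with medians of -0.29 and -0.21. Over all tested genes, 31.7% fell and 27.5% rose in KO, and 30.2% fell and 26.2% rose in WT, with a median of -0.05 in each genotype. Rdh10, which makes retinaldehyde from retinol, averaged 5.13 CPM in KO_cold and 10.3 CPM in KO_RT, and 6.06 CPM in WT_cold and 10.7 CPM in WT_RT, and fell in KO (adjusted p = 1.23e-07) and in WT (adjusted p = 1.49e-06). Rarb, a retinoic acid receptor that is itself induced by retinoic acid, fell in KO (-0.71, adjusted p = 3.12e-05) and in WT (-0.62, adjusted p = 0.000125).

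Among 10 adipocyte transcription factors, the C/EBP family member Cebpa fell with cold in KO (-2.34, adjusted p = 1.97e-07) and in WT (-1.99, adjusted p = 1.34e-06), and Cebpd rose in KO (1.58, adjusted p = 1.61e-07) and in WT (1.19, adjusted p = 6.7e-06). Neither was called with the genotype. Pparg, the master regulator of fat cells, averaged 161 CPM in KO_cold and 223 CPM in WT_cold and fell in KO in the cold (-0.47, adjusted p = 0.000411), and it averaged 216 CPM in KO_RT and 219 CPM in WT_RT at room temperature (-0.02, adjusted p = 0.945). Its partner Rxra also fell in KO in the cold (-0.54, adjusted p = 0.00763). The test of the difference between the temperatures did not pass for Pparg (-0.45, adjusted p = 0.0674) or for Rxra (-0.37, adjusted p = 0.476). Each of these calls of Pparg and Rxra in the cold was kept in 18 of 19 alternatives and lost with the fibroblast markers as a term (adjusted p = 0.16 for Pparg and 0.366 for Rxra). Over the 19 alternatives the log2 fold change ranged from -0.51 to -0.39 for Pparg and from -0.61 to -0.44 for Rxra.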

How the data were processed

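Processed count tables of 20 mouse BAT mRNA-seq libraries were used, in 4 groups of 5. Libraries were made with a stranded mRNA kit, per the labels' protocols, and Trim Galore 0.6.0, STAR 2.7.8a and the builds GRCm38.p6 and mm10 are named per the submitters' processing notes; the annotation release is not given in the sources used here. The deposited values are raw read counts per gene, unstranded and for each strand. The reverse-strand counts were used, which held 94.49% to 95.7% of the stranded counts. The first 4 entries name no gene and were left out: unmapped reads were 3.859% to 5.664%, multimapping reads 18.26% to 21.41%, reads in no gene 3.136% to 4.552% and ambiguous reads 1.019% to 1.162%. Multimapping reads are absent from the counts, so genes with near-identical copies are undercounted. Of the 55471 IDs, 55144 matched a symbol.

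Genes passing filterByExpr (minimum count 10, minimum total 15) were scaled by TMM and fitted in 1 model of the 4 groups with edgeR 4.0.16 (robust quasi-likelihood, 16 residual degrees of freedom, biological coefficient of variation 15.3%) in R 4.3.3. Adjusted p-values (Benjamini-Hochberg) cover all 15233 tested genes, and those under 0.05 were called. The log2 CPM used for profiles had a prior count of 2. The script was tested on simulated data. Exon lengths and UTRs came from the GENCODE annotation of GRCm38, and RefSeq promoter windows were searched for motifs on both strands. No 2 libraries were identical.

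The members and the gene and marker lists were chosen with earlier results of these data known. Beside the members, up to 4 called genes per list and comparison, those of smallest adjusted p whose mean reached 1 CPM in either group, are named, with the 3 most similar profiles of the 4 most variable members. C3, Cfb, Lepr, Metrn, Ttr, Stra6, Stra6l, Prkab1, Prkab2, Prkaa1 and Fabp4 are named outside this rule, after their values were seen. Alternatives were DESeq2 1.42.0, relative log expression scaling, no expression filter, both strands counted together, a fit of only the groups compared, a replicate block, the muscle markers as a term, leaving out each library, and leaving out WT_RT replicate 4 with WT_cold replicate 5. The fibroblast markers as a term were added after the data were seen. Some genes of the lists are not reported here.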

Additional observations from a re-analysis of the deposited data

Results flagged for a closer look

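Adipor2 in WT_cold replicate 5 measured 899 CPM, apart from the other 4 WT_cold libraries at 593 to 672 CPM. Its gap to the nearest library was 0.741 of the range of the group, above Dixon's 95% critical value for 5 libraries. Of 36 groups of member values tested in this way it was the 1 that stood apart, and chance gives about 1 in 20. The same library lay nearest to the room temperature libraries on the first principal component among the cold libraries, and without it and WT_RT replicate 4 the log2 fold change of Adipor2 with cold in WT was -0.55.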

How the results depend on the processing

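The calls of Rbp4 with the genotype, and those of Metrnl, Adipoq and Adipor2 with cold in both genotypes, kept their direction and stayed past the threshold in all 19 alternatives of each comparison. The number of genes called with the genotype at room temperature was 411, with 629 by DESeq2, 72 with the fibroblast markers as a term and 267 to 356 when 1 library was left out. In the cold it was 1173, with 205 with the fibroblast markers as a term. For the interaction it was 113, with 269 by DESeq2 and 74 without WT_RT replicate 4 and WT_cold replicate 5. The cause of these shifts was not tested. The fibroblast term cannot be fully separated from the genotype, since its values in KO_cold and WT_cold did not overlap. Replicate numbers gave no clear pairing of the libraries. Over 30 same-numbered pairs the correlation of deviations from the group means was -0.184 to 0.274 (median 0.0146), with 7 over 0.1. Over 120 differently numbered pairs it was -0.421 to 0.374 (median -0.00732), with 20 over 0.1. Of the 5 WT_cold libraries, 3 correlated best with the KO_cold library of their own number. The count was 2 with cold in WT, 0 with cold in KO and 1 with the genotype at room temperature. With the replicate block 383 genes were called at room temperature, 1078 in the cold and 94 for the interaction, and 8958 with cold in KO and 8491 in WT. The block moved the adjusted p of Rbp4 with cold in KO to 0.0659 and that of Lep with cold in WT to 0.0738, both past the threshold without it. No scaling moved the median of all genes by over 0.1.

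Values that changed sign were all uncalled, except Fbn1 with the genotype in the cold, which was -0.00 with the fibroblast markers as a term and 0.36 without. With the fibroblast markers as a term, the values at room temperature were -0.68 for Lep and 0.09 for Metrnl with the genotype, those in the cold 0.09 for Cfd and 0.12 for Adipor2, and the Rarres2 interaction was -0.04. With the muscle markers as a term, Cfd with cold in KO was -0.16, and Adipoq, Lep and Retn with the genotype at room temperature were 0.01, -0.05 and -0.02. Rarres2 with cold in KO was 0.02 with both strands counted together. Without WT_RT replicate 4 and WT_cold replicate 5 together, Adipoq was 0.02 with the genotype at each temperature, Lep -0.14 and Retn -0.10 at room temperature, Adipor2 0.10 in the cold, and the interactions of Adipoq, Retn, Rarres2, Adipor1 and Adipor2 were 0.00, 0.09, -0.03, 0.00 and 0.06. With 1 library left out, the values lay from -0.23 to 0.03 for Rarres2 with cold in WT, from -0.02 to 0.18 for Cfd and from -0.13 to 0.1 for Rarres2 with cold in KO. With the genotype at room temperature they lay from -0.03 to 0.02 for Adipoq, -0.48 to 0.31 for Lep, -0.1 to 0.14 for Retn, -0.06 to 0.06 for Metrnl and -0.05 to 0.02 for Adipor1. In the cold they lay from -0.08 to 0.02 for Adipoq and -0.06 to 0.1 for Adipor2, and for the interaction from -0.07 to 0.03 for Adipoq, -0.07 to 0.22 for Rarres2 and -0.05 to 0.02 for Adipor1.

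Depth limits Lep most, with as few as 5 reads in a library. The labels do not say whether libraries came from separate mice. All 9 genes were measured as RNA in whole tissue, which does not give secreted protein.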

Other observations

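Other adipokines were measured in the same libraries, 16 of a list of 21 with enough reads to be tested. With cold, 3 rose and 3 fell in KO and 5 rose and 5 fell in WT. These 6 of 16 in KO and 10 of 16 in WT stand against 59.2% and 56.4% of all tested genes. Angptl4, an inhibitor of lipoprotein lipase, fell in KO (-0.68, adjusted p = 0.00664) and in WT (-0.95, adjusted p = 0.000556). Nampt, an enzyme of NAD synthesis that is also secreted, averaged 245 CPM in KO_cold, 409 in KO_RT, 316 in WT_cold and 410 in WT_RT, and fell with cold in KO (-0.74, adjusted p = 2.96e-06) and in WT (-0.38, adjusted p = 0.00382), with no interaction called (-0.36, adjusted p = 0.385). Nampt was also lower in KO_cold than in WT_cold (-0.37, adjusted p = 0.0314), a call kept in 9 of 19 alternatives (adjusted p up to 0.383). Of the 16 genes, 1 rose and 2 fell with the genotype in the cold, and 1 fell at room temperature. Over all tested genes, 7.7% and 2.7% were called there.

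With the genotype, Nrg4, a growth factor that brown fat sends to the liver, averaged 110 CPM in KO_cold and 213 CPM in WT_cold and fell in KO in the cold (-0.95, adjusted p = 5.58e-05); at room temperature it averaged 119 CPM in KO_RT and 149 CPM in WT_RT (-0.33, adjusted p = 0.216). It rose with cold in WT (0.51, adjusted p = 0.00181) and had a log2 fold change of -0.11 in KO (adjusted p = 0.486), and the test of the difference did not pass (-0.62, adjusted p = 0.144). Apln, which encodes the peptide apelin, averaged 4.27 CPM in KO_RT and 10.4 CPM in WT_RT and fell in KO at room temperature (-1.29, adjusted p = 0.0278). That call was kept in 7 of 19 alternatives and in 2 of the 10 that left out 1 library (adjusted p up to 0.0839), and with the fibroblast markers as a term the value was -0.99 (adjusted p = 0.444); single WT_RT libraries ranged from 3.12 to 16.9 CPM. Among the paralogs of the members, Rbp7, a retinol binding protein of endothelial and fat cells, averaged 45.3 CPM in KO_cold and 13.3 CPM in KO_RT, and 44 CPM in WT_cold and 12.1 CPM in WT_RT, and rose in KO (1.78, adjusted p = 9.82e-05) and in WT (1.87, adjusted p = 6.33e-05). C1qtnf1, a relative of adiponectin, rose in KO in the cold (0.46, adjusted p = 0.0066), with means of 11.9 CPM in KO_cold and 8.69 CPM in WT_cold, a call that was lost with the fibroblast markers as a term (adjusted p = 0.459). Its log2 fold change ranged from 0.33 to 0.51 over the 19 alternatives.

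Of the 10 tested paralogs of the members, 1 rose and 3 fell with cold in KO, and 1 rose and 2 fell in WT. For these and the marker lists below, 27.5% of all tested genes rose and 31.7% fell with cold in KO. In WT 26.2% rose and 30.2% fell. With cold, 3 of 9 macrophage markers rose in KO and 2 in WT, 3 of 7 lymphocyte markers fell in KO and 4 in WT, and of 6 endothelial markers 3 rose and 2 fell in KO and 2 rose and 2 fell in WT. None of the macrophage, lymphocyte and endothelial lists had a member called with the genotype. Of 8 brown adipocyte markers, 3 rose and 2 fell with cold in KO and 2 rose and 4 fell in WT; 1 rose and 1 fell with the genotype in the cold and 2 fell at room temperature. Of 9 mature adipocyte markers 2 fell with the genotype in the cold. Over all tested genes, 7.7% were called with the genotype in the cold and 2.7% at room temperature. Of 5 mesothelial markers 1 was tested, and it fell with cold in both genotypes; 2 of 6 white adipocyte markers were tested, and 1 fell with cold in both.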
